A study of Caenorhabditis elegans with 6 samples.

Results

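The dosage compensation complex genes of Caenorhabditis elegans are 10 of the 18648 protein-coding genes tested. The rule that picks them uses their names and no measured value, and they were located at their WBcel235 coordinates, the assembly also called ce11. All 10 had methylation data: 162 GATC sites were listed in their gene bodies and in the 500 bp on each side, 144 of them in the bodies. In addition, 234 entries of the 2-kb table lay within 20 kb of them. The genes encode the 5 condensin-type subunits mix-1 (chromosome II), dpy-27 and dpy-28 (III), dpy-26 (IV) and capg-1 (I), the 3 recruitment factors sdc-1 and sdc-2 (X) and sdc-3 (V), and the associated proteins dpy-30 and dpy-21 (V).

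The complex equalises X-linked gene expression between the sexes. In XX hermaphrodites it loads onto both X chromosomes and lowers their transcription, and it is not assembled on the single X of males. SDC-2 is the hermaphrodite-specific factor that starts loading together with SDC-3 and DPY-30. The loaded machine is a condensin in which the SMC-4 partner of MIX-1 is replaced by DPY-27, and DPY-21 is a histone H4 lysine demethylase that acts on X. EMR-1 is the worm emerin, an inner nuclear membrane protein, so DamID with EMR-1 asks whether a gene lies near the nuclear periphery.

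In DamID, the bacterial methyltransferase Dam marks GATC sequences close to the protein it is fused to, and marked fragments are amplified and sequenced. The comparison was between 2 groups of 3 libraries: Dam::EMR-1 (strain BN1470) and GFP::Dam (strain BN1465), which is not tethered to the envelope. Both are labelled genotype WT and cell type EMS, the founder blastomere that gives rise to the intestine and contributes to pharynx and muscle. Construct and strain cannot be told apart. Embryos of both came from 4000 adults per strain grown for 72 h at 20 °C on bacteria lacking Dam methylation, and the assay used 200 ng of DNA and 24 PCR cycles. The labels do not state how Dam was restricted to EMS, nor do they describe the replicates as separate cultures. The p-values therefore cover the spread among these libraries alone, which may be technical. The assay reads DNA, so cell identity could not be checked against marker genes. A smaller share of cells with a contact and a less frequent contact in each cell cannot be told apart.

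The ratios used are log2 values of Dam::EMR-1 over GFP::Dam, 1 for each replicate number, as deposited. The tables do not name the numerator. It was taken to be Dam::EMR-1 because the tables are named after EMR-1 and DamID ratios are usually built that way, and with the opposite order every sign would turn and the read values below would swap groups. A gene's ratio is the mean over its listed GATC sites. "Depleted" means below 0 and "enriched" above 0 at an adjusted p of 0.05 in limma, with Benjamini-Hochberg adjustment over all genes, sites or 2-kb entries tested. The libraries held, by reads recovered from GATC sites, 22182083, 15780149 and 17200447 reads in Dam::EMR-1 and 17591580, 16410460 and 17523053 in GFP::Dam.

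Most dosage compensation genes lay on the low side of the EMR-1 profile. By limma, 7 of the 10 were depleted and 0 enriched, against 27.2% of all genes tested depleted and 30.2% enriched. At an unadjusted p of 0.05, limma had 8 depleted and 0 enriched, and the share of all genes at that p was not counted. The median ratio of the 10 genes was -2.84, against a median of 0.31 over all genes, whose middle 50% ran from -2.35 to 2.57. The depleted genes comprised 4 of the 5 condensin-type subunits, 2 of the 3 SDC genes, and dpy-30 of the remaining pair. Both X-linked members and 5 of the 8 autosomal ones were depleted. Of all X-linked genes 25.7% were depleted, and of autosomal genes 27.4%. Compared with the median gene of the same chromosome segment (left, middle or right, of equal length), 9 of the 10 were lower, with dpy-28 as the exception. In edgeR's quasi-likelihood test on reads summed per gene, 4 of the 10 were depleted and 0 enriched (mix-1, capg-1, sdc-1 and dpy-30), against 15.4% and 13.2% of all genes.

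**Figure D1:**
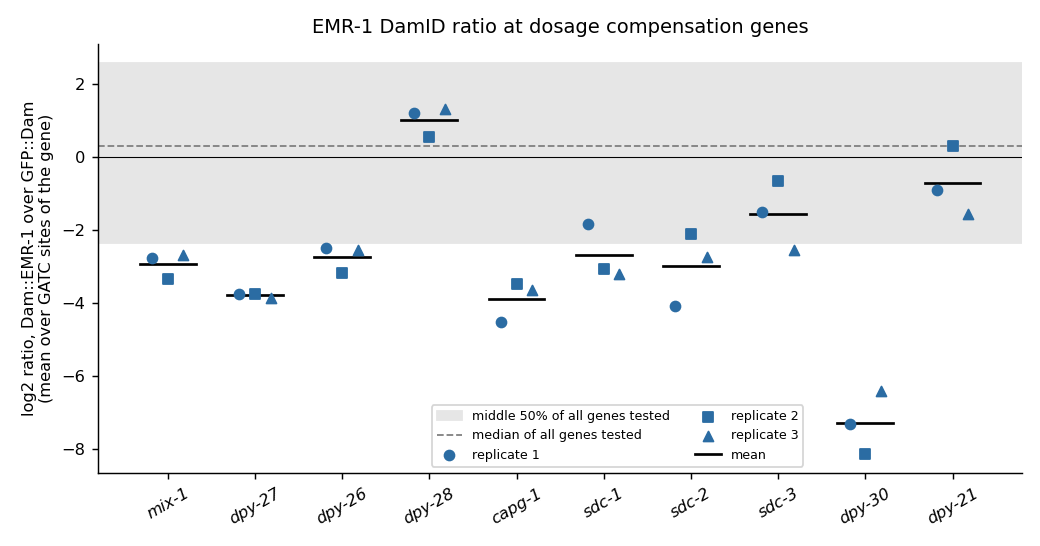
Log2 ratio of Dam::EMR-1 over GFP::Dam (y axis) for each of the 10 dosage compensation genes (x axis), with 1 point for each of 3 replicate numbers and a bar at their mean. The dashed line marks the median of all genes tested (0.31) and the grey band their middle 50%. dpy-30 lies lowest at a mean of -7.31, and dpy-28 alone has all 3 points above the median.

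Among the condensin-type subunits, mix-1 and dpy-27, the SMC pair whose long coiled coils form the ring, were both depleted. mix-1 (II, 10824246 to 10841424) had ratios of -2.78, -3.35 and -2.70, a mean of -2.94 ± 0.35 (SD, n = 3; limma, adjusted p = 0.0027). Its window held 22.2, 5.45 and 7.67 RPM (reads scaled to the library total) in the Dam::EMR-1 libraries, against 154, 105 and 59.3 in the GFP::Dam libraries. The groups did not overlap, and all Dam::EMR-1 libraries were lower. MIX-1 is also the SMC-2 subunit of the mitotic condensins, so this gene is not specific to dosage compensation.

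dpy-27 (III, 3813644 to 3819679), which encodes the SMC protein found only in the dosage compensation form of condensin, had the tightest replicates of the 10, at -3.75, -3.77 and -3.86 (mean -3.79 ± 0.05, SD, n = 3; limma, adjusted p = 0.0012). Its reads were less uniform than its ratios, with 1.40, 1.27 and 31.6 RPM in Dam::EMR-1 and 57.0, 44.4 and 55.6 in GFP::Dam. Dam::EMR-1 replicate 3 stood apart from the others but still lay below every GFP::Dam library. Of its 543 reads, 246 and 295 came from the sites 3.41 and 3.65 kb from the gene's low-coordinate end. On summed reads dpy-27 missed the threshold in edgeR (adjusted p = 0.059, log2 change -4.71), and adjusted p ran from 0.00041 to 0.12 over 14 alternative fits.

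dpy-26 and capg-1 encode the kleisin that closes the ring and a HEAT-repeat subunit bound to it. dpy-26 (IV, 12445801 to 12451335) was depleted, with ratios of -2.50, -3.19 and -2.54 (mean -2.75 ± 0.39, SD, n = 3; limma, adjusted p = 0.01). It had 1.22, 10.2 and 8.26 RPM in Dam::EMR-1 against 22.2, 30.1 and 30.4 in GFP::Dam, without overlap. The call was lost in edgeR (adjusted p = 0.078, log2 change -3.18) and with the median over sites in limma (adjusted p = 0.11), and over 14 alternative fits adjusted p ran from 0.0063 to 0.15.

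capg-1 (I, 7634492 to 7639785) was among the clearest of the group. Its ratios were -4.52, -3.49 and -3.66 (mean -3.89 ± 0.55, SD, n = 3; limma, adjusted p = 0.00039). Read levels were 4.06, 8.62 and 16.5 RPM in Dam::EMR-1 and 186, 163 and 187 in GFP::Dam. The lowest GFP::Dam library thus lay far above the highest Dam::EMR-1 library. In edgeR the log2 change was -5.1 (adjusted p = 0.011), and all 14 alternative fits called it. The middle segment of chromosome I was itself low, with 45.6% of genes depleted and a median of -1.91.

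dpy-28 was the one condensin-type subunit that was not depleted. The gene (III, 10763131 to 10777076) encodes the other HEAT-repeat subunit and had ratios of 1.20, 0.56 and 1.33 (mean 1.03 ± 0.41, SD, n = 3; limma, adjusted p = 0.21). Read levels were 28.7, 58.9 and 49.1 RPM in Dam::EMR-1 and 17.0, 32.2 and 26.4 in GFP::Dam. The groups overlapped, since Dam::EMR-1 replicate 1 lay below GFP::Dam replicate 2. On summed reads the change was 0.16 (log2; edgeR, adjusted p = 0.90).

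Of the recruitment factors, sdc-1 and sdc-2 were depleted and sdc-3 was not called, and differences between the 3 were not tested. sdc-1 (X, 16275763 to 16282691), a zinc-finger protein that acts in both dosage compensation and sex determination, had ratios of -1.83, -3.08 and -3.20 (mean -2.70 ± 0.76, SD, n = 3; limma, adjusted p = 0.0029). It had 34.1, 12.9 and 19.3 RPM in Dam::EMR-1 and 254, 157 and 162 in GFP::Dam, without overlap. It was also depleted in edgeR (adjusted p = 0.014, log2 change -3.87).

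sdc-2 (X, 11522707 to 11533450), the gene that triggers assembly on X, had ratios of -4.08, -2.12 and -2.73 (mean -2.98 ± 1.01, SD, n = 3; limma, adjusted p = 0.0045). Its Dam::EMR-1 libraries held 0.631, 35.9 and 9.07 RPM, against 71.1, 58.6 and 108 in GFP::Dam. Dam::EMR-1 replicate 2 was the high one, and 246 of its 566 reads came from 1 site at 8.74 kb, yet the groups did not overlap. Summed reads missed the threshold in edgeR (adjusted p = 0.065, log2 change -4.26), and adjusted p ran from 0.0022 to 0.10 over 14 alternative fits.

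sdc-3 (V, 15039148 to 15048207), a zinc-finger protein needed with SDC-2 for loading, was not called. Its ratios were -1.51, -0.66 and -2.54 (mean -1.57 ± 0.94, SD, n = 3; limma, adjusted p = 0.074). Read levels were 45.3, 47.8 and 21.3 RPM in Dam::EMR-1 and 34.2, 46.4 and 48.7 in GFP::Dam. Only Dam::EMR-1 replicate 3 lay below all GFP::Dam libraries, and the groups overlapped. It passed in limma when libraries were fitted singly rather than as ratios (adjusted p = 0.042) and, narrowly, with a pseudocount of 0.1 (0.05 after rounding). Over 14 alternative fits adjusted p ran from 0.042 to 0.86.

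dpy-30, a small protein shared with the COMPASS histone H3 methyltransferases and required for SDC loading, had the lowest ratio of the 10. The gene (V, 12191519 to 12192177) is 659 bp long and has 4 listed sites, 2 of them in its body. Its ratios were -7.34, -8.14 and -6.43 (mean -7.31 ± 0.85, SD, n = 3; limma, adjusted p = 1.3e-05), and 76 of the genes tested (0.408%) lay lower. Read levels were 13.7, 2.60 and 16.2 RPM in Dam::EMR-1 and 252, 400 and 411 in GFP::Dam. The groups lay far apart, and edgeR also called the gene (adjusted p = 0.011, log2 change -5.97).

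dpy-21 (V, 17936282 to 17949193) was not called. Its 9 sites, against a median of 6 per tested gene, held 1230 reads over the 6 libraries, against a median of 2039.5. The ratios were -0.90, 0.30 and -1.55 (mean -0.72 ± 0.94, SD, n = 3; limma, adjusted p = 0.46). Read levels were 17.9, 20.3 and 5.17 RPM in Dam::EMR-1 and 5.91, 14.1 and 5.08 in GFP::Dam, and the groups overlapped. In each Dam::EMR-1 library other sites carried the reads: all 397 reads of replicate 1 lay at -0.28 kb, the 320 of replicate 2 at 0.21 and 0.63 kb, and the 89 of replicate 3 at 8.14 and 8.33 kb.

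**Figure D2:**
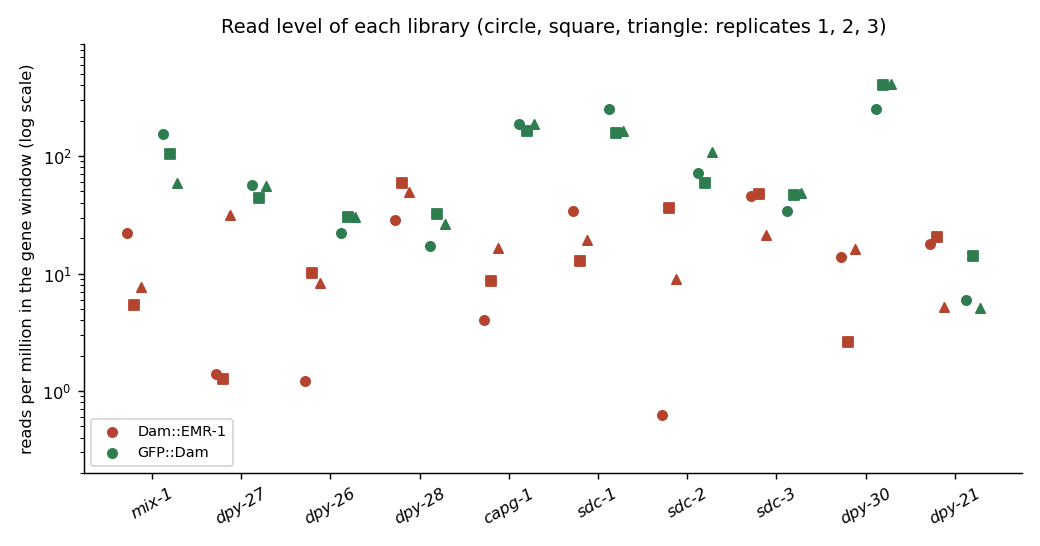
RPM in each gene's window (y axis, log scale) for the 3 Dam::EMR-1 libraries (red, left of each pair) and the 3 GFP::Dam libraries (green, right), over the 10 genes (x axis). In 7 genes every Dam::EMR-1 point lies below every GFP::Dam point, and in dpy-28, sdc-3 and dpy-21 the groups overlap.

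In the read levels, the 7 depleted genes were also the 7 in which the groups did not overlap with Dam::EMR-1 lower, against 25.1% of all genes. In 0 of the 10 did Dam::EMR-1 lie wholly above GFP::Dam, against 37.2% of all genes. For any single gene, the smallest p that an exact two-sided permutation test of 3 against 3 libraries allows is 0.1. Per kb of window, the genes ranked higher among all genes in GFP::Dam than in Dam::EMR-1, dpy-28 and dpy-21 nearly alike in both. For dpy-30, 6.53 RPM per kb in Dam::EMR-1 exceeded the level of 58.6% of genes, and 214 in GFP::Dam that of 99.5%. capg-1 (1.55 in Dam::EMR-1, 28.4 in GFP::Dam) exceeded 27.8% and 92.3% of genes. sdc-1 (2.79 and 24.1) exceeded 38.8% and 90.8%. At the other end, dpy-28 (3.05 in Dam::EMR-1, 1.69 in GFP::Dam) exceeded 40.8% and 41.3%, and dpy-21 (1.04 and 0.601) exceeded 21.8% and 22.9%.

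Ordered by ratio from the lowest, the genes ran dpy-30, capg-1, dpy-27, sdc-2, mix-1, dpy-26, sdc-1, sdc-3, dpy-21 and dpy-28. Only the first and the last stood clear of their neighbours in that order. All 3 ratios of dpy-30 were below all 3 of capg-1, and all 3 of dpy-28 were above all 3 of dpy-21. Every other pair of neighbours overlapped in its replicate ratios. Gene ratios scaled to library totals, without the authors' centring, were higher by 0.28 on average (0.26, 0.39 and 0.19 in the 3 replicates), and 7 of 10 were again depleted on that scale.

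At single GATC sites, 7 of the 10 genes had a depleted site, namely sdc-3 and all members called depleted except dpy-26. The share of all genes with such a site was not counted. Of the 162 sites listed, 110 had at least 60 reads over the libraries and were tested. In limma 33 of these were depleted, or 30.0%, against 12.7% of all sites tested, and 1 was enriched, or 0.909%, against 12.5%. Sites within a gene share fragments and are not independent. The depleted sites had mean ratios between -10.06 and -4.76. In 15 of the 33 every Dam::EMR-1 library had 0 reads, and in 25 none had more than 2. The size of such ratios depends on the 1 read added to each count, and a site without reads in both libraries of a replicate is listed at -0.59, -0.34 or -0.16 after centring. These site calls needed all replicates: with any 1 left out, limma called 0 of the 110 and 0 of all sites tested. At an unadjusted p of 0.05 these fits had 39 to 43 of the 110 depleted. The share of all sites at that p was not counted.

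**Figure D3:**
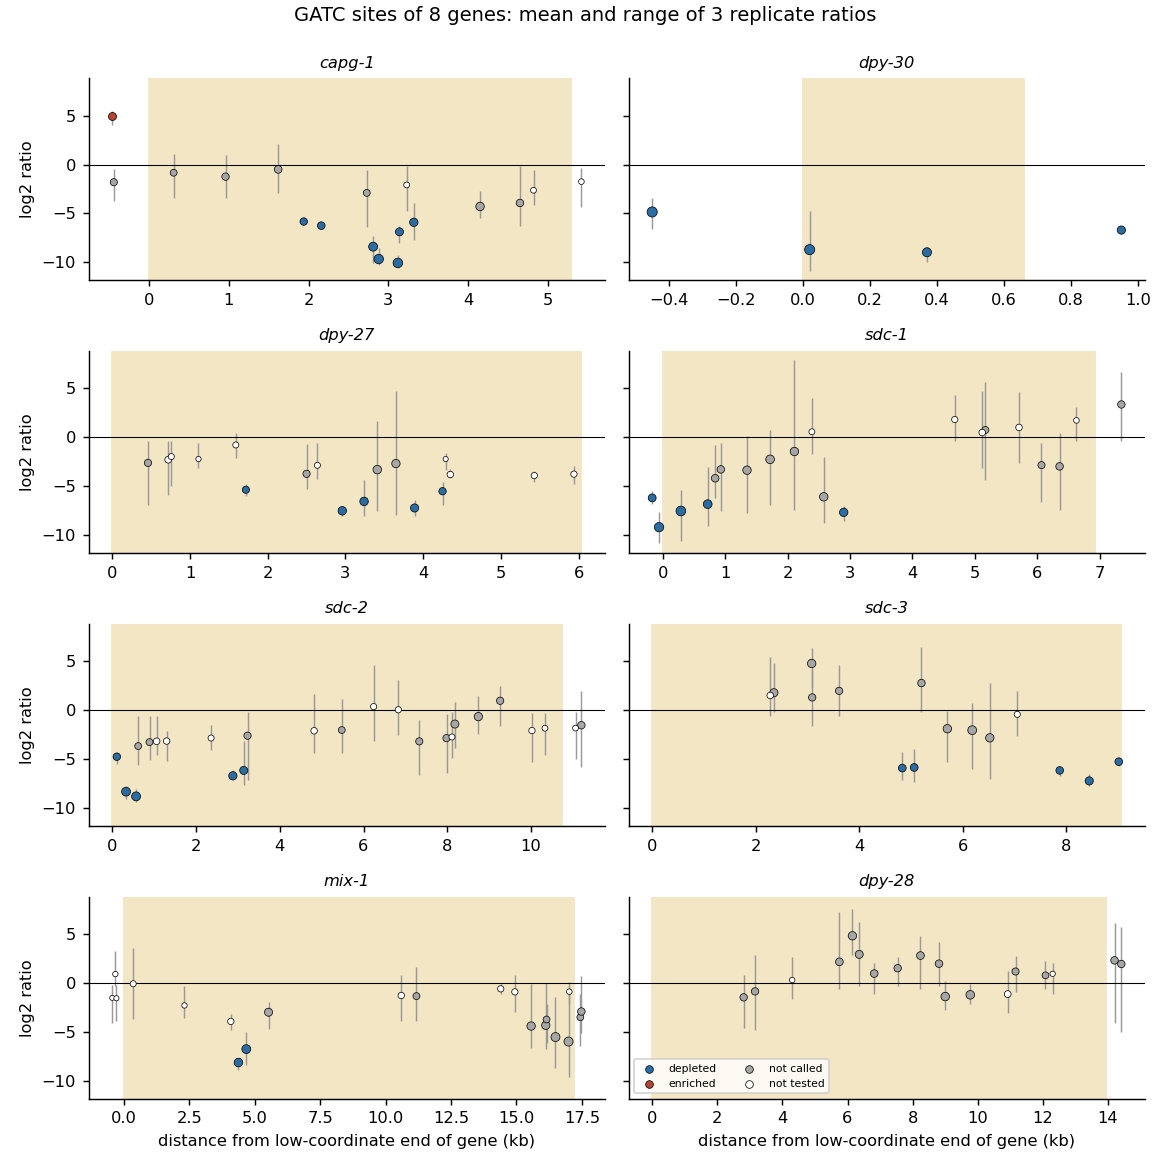
Mean log2 ratio of each GATC site (y axis), with a line over the range of 3 replicates, against distance from the low-coordinate end of 8 of the genes (x axis, kb). The shaded band is the gene body, larger points have more reads, and colour gives the limma call. Depleted sites lie in the middle of capg-1 (1.94 to 3.32 kb), in the low-coordinate part of sdc-1 and sdc-2, and over all 4 sites of dpy-30, while dpy-28 has none.

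capg-1 carried 7 depleted sites, all between 1.94 and 3.32 kb from its low-coordinate end. At 3.12 kb the Dam::EMR-1 libraries had 0, 1 and 0 reads, against 1013, 980 and 1148 in GFP::Dam (limma, adjusted p = 0.011). At 2.88 kb they had 0, 2 and 0, against 823, 863 and 1042. These 2 sites held 32.3% and 28% of all reads of the gene. The single enriched site of the 10 genes lay just outside the same gene, at -0.46 kb, with 68, 19 and 187 reads in Dam::EMR-1 and 0, 0 and 3 in GFP::Dam (mean ratio 4.97 ± 0.85, SD, n = 3; limma, adjusted p = 0.038).

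In sdc-1 the 5 depleted sites lay between -0.17 and 2.90 kb. The site at 0.29 kb held 36.8% of the gene's reads, with 1, 29 and 11 in Dam::EMR-1 and 1987, 971 and 1105 in GFP::Dam. From 4.68 kb on no site was called, and no library of either group had more than 149 reads at a site. sdc-2 had the same count, 5 of 15 tested sites, between 0.11 and 3.14 kb. At 0.57 kb all Dam::EMR-1 libraries had 0 reads, against 333, 210 and 605 in GFP::Dam (limma, adjusted p = 0.013).

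sdc-3, which was not called as a gene, had 5 depleted sites among 13 tested. They lay at 4.83, 5.06, 7.87, 8.44 and 9.01 kb, and at 8.44 kb all Dam::EMR-1 libraries had 0 reads, against 105, 176 and 83 in GFP::Dam (limma, adjusted p = 0.019). The sites from 2.28 to 3.61 kb had mean ratios above 0, up to 4.77 ± 2.24 at 3.08 kb (SD, n = 3; limma, adjusted p = 0.058). Some of these have more than 1 solution for their reads. The gene's mean thus averaged sites with mean ratios of either sign, although none of those above 0 was called enriched.

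All 4 sites of dpy-30 were depleted. At 0.37 kb Dam::EMR-1 had 0 reads in every library, against 243, 281 and 863 in GFP::Dam. At 0.02 kb Dam::EMR-1 had 1, 1 and 140 reads, against 1907, 3033 and 3308. The site at -0.45 kb held 301 of the 303 reads of Dam::EMR-1 replicate 1, so nearly all of that library's signal came from outside the gene body. dpy-27 had 5 depleted sites of 9 tested and mix-1 2 of 11, at 4.38 and 4.68 kb. dpy-26, depleted as a gene, had 0 of 8 sites called. Its lowest, at 3.91 kb, had 0 reads in every Dam::EMR-1 library, against 139, 2 and 156 in GFP::Dam (limma, adjusted p = 0.057). dpy-21 had 0 of 5 and dpy-28 0 of 15 sites called. The highest of dpy-28, at 6.15 kb, had 76, 229 and 176 reads in Dam::EMR-1 and 2, 0 and 21 in GFP::Dam (limma, adjusted p = 0.061).

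The genes were next set against their own surroundings, as the gene's ratio minus the mean ratio of sites more than 500 bp and at most 20 kb outside it, a difference that does not depend on the centring. In limma 4 of the 10 were lower than their surroundings, against 14.2% of all genes, and 1 was higher, against 12.3%. The median difference of the 10 was -1.36, against 0.13 over all genes. dpy-30 was lower by -5.35 ± 1.11 and capg-1 by -3.75 ± 0.66 (SD, n = 3; limma, adjusted p = 0.00026 and 0.002). Both calls held in all 8 alternative fits. The surroundings pool both sides of a gene. On the low-coordinate side 2-kb entries averaged -0.66 at dpy-30 and 2.76 at capg-1. On the high-coordinate side they averaged -5.12 and -3.24, so these differences do not show a dip confined to the gene.

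Both X-linked members were lower than their surroundings. sdc-2 differed by -2.81 ± 0.70 (SD, n = 3; limma, adjusted p = 0.014), and its adjusted p was 0.054 without replicate 1. sdc-1 differed by -2.17 ± 1.26 (SD, n = 3; limma, adjusted p = 0.033), and missed the threshold without replicate 2 (0.099), without replicate 3 (0.18) and with a pseudocount of 0.1 (0.051). Their surroundings had mean ratios of -0.17 and -0.53. At sdc-2 that mean pooled unlike sides. Its 10 2-kb entries on the low-coordinate side averaged 0.72, with 1 depleted. The 10 on the high-coordinate side averaged -2.63, with 3 depleted, so the difference does not show a dip confined to sdc-2. At sdc-1 the sides averaged 0.1 and 0.39.

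dpy-28 was the member that lay above its surroundings. The difference was 3.22, 2.05 and 2.84 in the 3 replicates (mean 2.70 ± 0.59, SD, n = 3; limma, adjusted p = 0.019). It did not pass without replicate 1 (0.063), without replicate 3 (0.067) or with 2-kb entries in place of sites (0.054). Its surroundings had a mean ratio of -1.67.

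In the other 5 members the difference from the surroundings did not pass. dpy-27 (-0.04 ± 0.23) and mix-1 (-0.56 ± 0.85, SD, n = 3) were depleted genes whose surroundings had mean ratios below 0 as well, at -3.76 and -2.38 (limma, adjusted p of the difference 0.98 and 0.57). The differences for dpy-26 (-1.84 ± 0.90), sdc-3 (-0.88 ± 1.17) and dpy-21 (-0.03 ± 0.98) were not called either (SD, n = 3; limma, adjusted p = 0.11, 0.40 and 0.99).

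**Figure D4:**
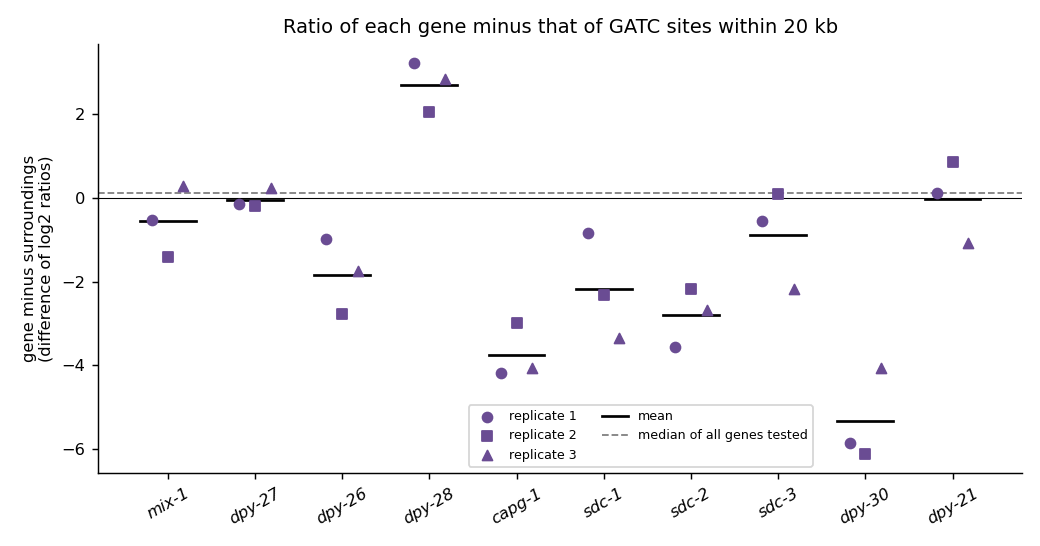
Gene ratio minus the mean ratio of GATC sites within 20 kb (y axis, difference of log2 ratios) for the 10 genes (x axis), with 1 point for each of 3 replicates and a bar at the mean. dpy-30 (-5.35) and capg-1 (-3.75) lie lowest, dpy-28 (2.70) lies highest, and dpy-27 and dpy-21 lie at about 0.

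The 2-kb table showed these surroundings step by step. Of 223 entries tested within 20 kb of the 10 genes, 56 were depleted in limma, or 25.1%, against 17.2% of all entries tested, and 6 were enriched, or 2.69%, against 19.2%. With 1 replicate left out, 31 to 32 were depleted and 1 to 2 enriched. Over all 41117 entries tested, these fits had 3163 to 3666 depleted and 2174 to 2774 enriched. Among the 47 entries that overlap a gene body, tested or not, 15 were depleted and 0 enriched, against the same 17.2% and 19.2% of all entries tested. Some of the 47, at mix-1 and dpy-21, had too few reads to be tested. Around dpy-27, 12 of 24 entries were depleted and all 24 means were below 0, as were those around mix-1. It also had the lowest entry of all 10 genes at -10.75 ± 0.45 (SD, n = 3; III, 3798001 to 3800000; limma, adjusted p = 0.007).

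dpy-28 and capg-1 lay beside steps in the profile, in opposite ways. The 10 entries on the low-coordinate side of dpy-28 averaged -5.37, with 7 depleted. The 8 over the gene averaged 0.33, with 0 depleted, and the 9 beyond it 0.88, with 1 depleted. At capg-1 the 10 entries on the low-coordinate side averaged 2.76, with 3 enriched, the 3 over the gene -4.08, with 2 depleted, and the 10 beyond -3.24, with 3 depleted. The highest, at I 7628001 to 7630000, had ratios of 7.77, 6.75 and 6.38 (limma, adjusted p = 0.0084). The lowest, at I 7640001 to 7642000, had -11.34, -7.19 and -10.12 (limma, adjusted p = 0.0082). These 2 entries were thus 10 kb apart on either side of the gene. A step also lay at dpy-30. Its 10 entries on the low-coordinate side averaged -0.66, with 0 depleted, and the 2 over the gene -6.57, with 2 depleted. The 10 beyond dpy-30 averaged -5.12, with 5 depleted.

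**Figure D5:**
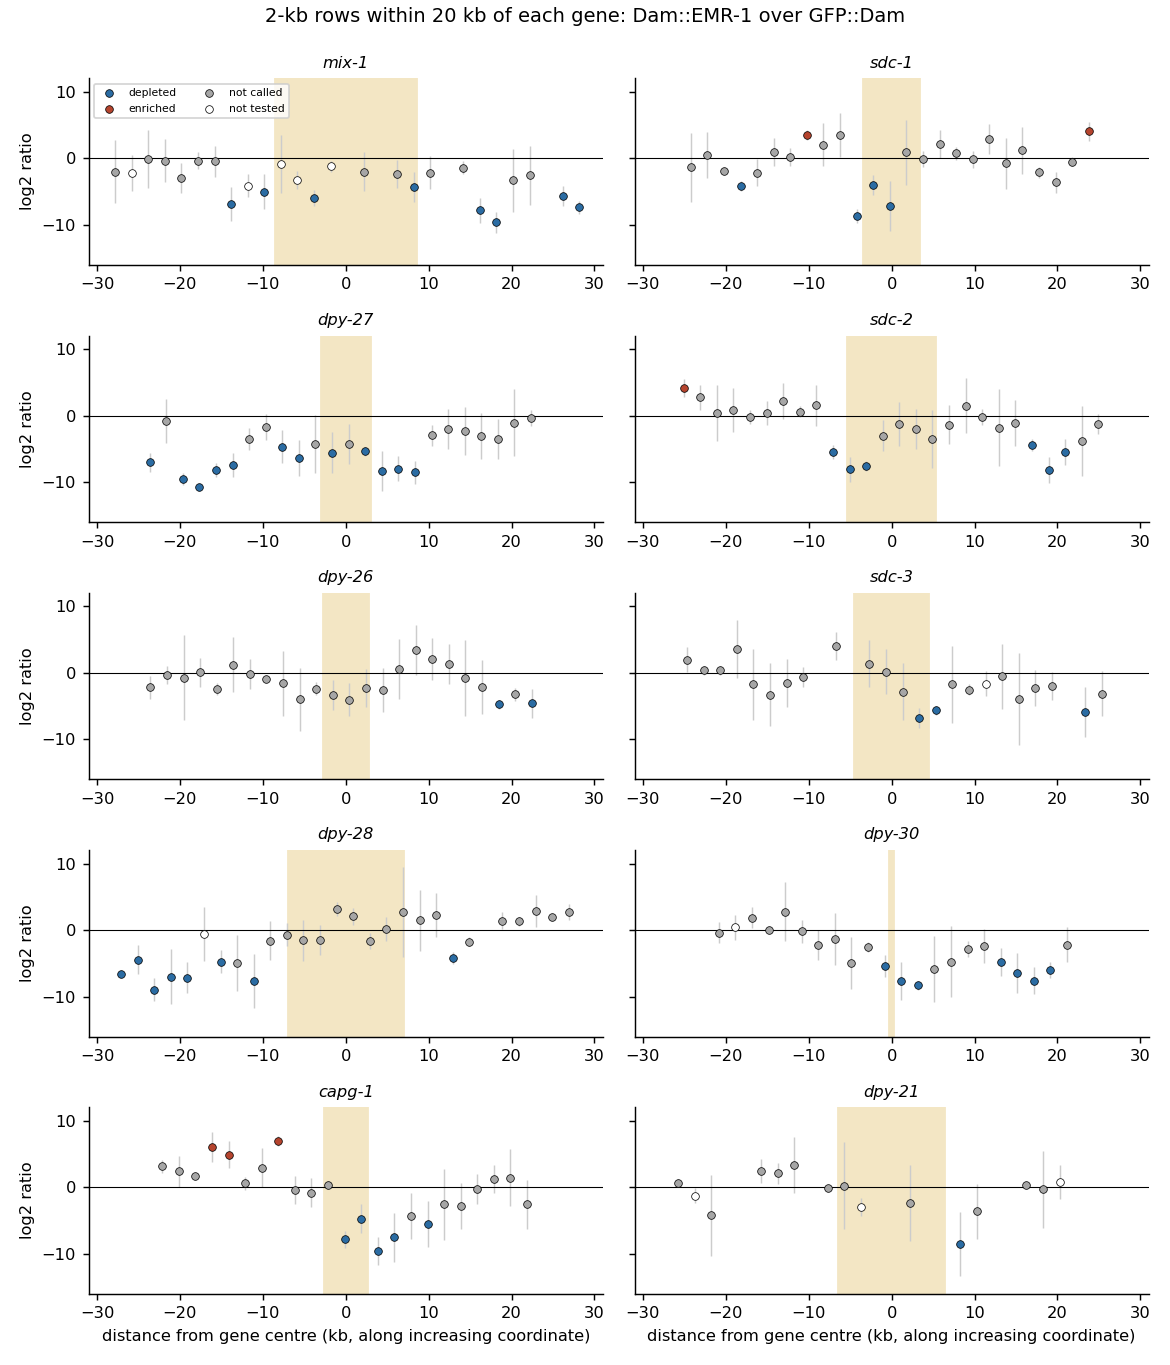
Mean log2 ratio ± SD of 3 replicates (y axis) for 2-kb entries within 20 kb of each gene, against distance from the gene's centre (x axis, kb, along increasing coordinate). The shaded band is the gene body and colour gives the limma call. Low values surround dpy-27 on both sides, end at the low-coordinate edge of dpy-28, and begin within capg-1.

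The nearest protein-coding gene on each side that does not overlap the member's body was measured in the same way. Genes that overlap the body were passed over. Of these 20 neighbours 9 were depleted and 2 enriched in limma, against 27.2% and 30.2% of all genes tested, and 6 share a site with the member beside them. The windows of dpy-21, dpy-27 and sdc-3 touch no other protein-coding gene, that of mix-1 touches 3, and each of the other 6 touches 1, so signal in shared stretches belongs to both genes. At dpy-30, rnp-1, an RNA-binding protein gene 95 bp away, takes in 2 of its 4 sites and had -4.67 ± 0.82 (SD, n = 3; limma, adjusted p = 0.00039). On the 2 sides of capg-1 the neighbours had opposite signs. lrp-1, which encodes a megalin-like lipoprotein receptor, had 1.99 ± 0.72 (limma, adjusted p = 0.0057), and F26A3.1 had -5.11 ± 1.34 (SD, n = 3; limma, adjusted p = 0.0005). The call of lrp-1 ended with the median over sites and in edgeR with the replicate block (adjusted p = 0.053), that of F26A3.1 in no alternative fit.

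At dpy-28, tasp-1 lies 124 bp away on the low-coordinate side and had -2.60 ± 0.68 (SD, n = 3; limma, adjusted p = 0.0045), the opposite sign to dpy-28 itself. Next to dpy-27, the amine oxidase gene amx-1 had -4.24 ± 1.19 (SD, n = 3; limma, adjusted p = 0.0014) and kept its call in all 14 alternative fits. melo-3, beside sdc-3, was the other enriched neighbour (2.84 ± 1.41, SD, n = 3; limma, adjusted p = 0.018), but lost the call in 7 of 14 alternative fits, including without replicate 1 and without replicate 2.

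The lowest ratio among the neighbours was that of Y59A8B.24, on the high-coordinate side of dpy-21, at -5.58 ± 2.09 (SD, n = 3; limma, adjusted p = 0.00049). It was called in 10 of 13 alternative fits and missed the threshold in the 3 edgeR fits (adjusted p = 0.056 to 0.14). M106.2 beside mix-1 had -2.92 ± 0.45 (SD, n = 3; limma, adjusted p = 0.0043) and likewise lost its call in edgeR alone (0.092 to 0.29). Next to dpy-30 on its other side, ZK863.8 had -2.75 ± 1.17 (SD, n = 3; limma, adjusted p = 0.015), and next to dpy-27 toh-1 had -2.73 ± 0.88 (adjusted p = 0.014). These 2 calls were lost in 6 and 4 of 14 alternative fits, with adjusted p of up to 0.073 and 0.088 when 1 replicate was left out. C25G4.2 beside dpy-26 had -2.44 ± 2.06 (SD, n = 3; limma, adjusted p = 0.044) and kept its call in 4 of 14 alternative fits, with 0.20 as the highest adjusted p when 1 replicate was left out.

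The remaining 9 neighbours did not pass. Beside the X-linked members, ifa-3 (2.09 ± 1.14) and F52E10.2 (2.25 ± 2.58) flank sdc-1, and hpo-34 (1.23 ± 0.98) and C35C5.8 (-0.48 ± 3.19) flank sdc-2 (SD, n = 3). On autosomes the values were -1.87 ± 1.29 for R06F6.12 beside mix-1, -1.86 ± 1.54 for spe-44 beside dpy-26 and -0.77 ± 0.21 for ptr-19 beside dpy-28. On V, fbxa-82 beside sdc-3 had -0.75 ± 1.89 and usp-50 beside dpy-21 had 1.13 ± 0.77 (SD, n = 3). Adjusted p of these 9 in limma ran from 0.055 for spe-44 to 0.71 for C35C5.8.

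Within the genes, each window was cut at its middle, and the low-coordinate side was compared with the high-coordinate side as the difference of their mean ratios. In limma 0 of the 10 passed, against 1.01% of all genes with the low-coordinate side lower and 1.12% with it higher. At an unadjusted p of 0.05 there were 4, and the share of all genes at that p was not counted. sdc-1 had -5.20 ± 1.88, with a mean of -4.79 over its 12 low-coordinate sites and 0.42 over its 8 high-coordinate ones (SD, n = 3; limma, adjusted p = 0.059). sdc-3 had the opposite sign, 5.75 ± 3.07, with 2.27 on the low-coordinate and -3.49 on the high-coordinate side (SD, n = 3; limma, adjusted p = 0.056). With at least 3 sites required on each side, both passed (limma, adjusted p = 0.029 and 0.026), and sdc-3 also passed without replicate 1 (0.0042). Over all genes, that site minimum gave 245 of 8211 with the low-coordinate side lower and 271 with it higher. Without replicate 1 these were 218 and 240 of 11912. The other 2 were capg-1 (3.67 ± 0.91, adjusted p = 0.11) and sdc-2 (-3.19 ± 1.86, SD, n = 3; limma, adjusted p = 0.16). The 2 sides of mix-1 were nearly alike, at -2.93 and -2.95.

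Genes that work around the complex were read off the same fit in 3 lists. In the list of other condensin and cohesin genes, 9 of 12 were depleted and 0 enriched, with a median ratio of -2.92, against 27.2% depleted, 30.2% enriched and a median of 0.31 over all genes tested. smc-4, which takes the place of dpy-27 in the mitotic condensins, had -4.41 ± 0.79, capg-2, a condensin II subunit, -4.38 ± 1.36, and him-1, the cohesin SMC-1, -4.26 ± 1.18 (SD, n = 3; limma, adjusted p = 0.00031, 0.0012 and 0.0015). Calls of smc-4 and him-1 held in all 14 alternative fits, and that of capg-2 in 13.

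Of the COMPASS genes and histone modifiers 8 of 10 were depleted and 0 enriched (median -3.02), against the same 27.2% and 30.2% of all genes. The histone H4 methyltransferase genes set-1 and set-4 had -5.17 ± 1.37 and -5.04 ± 2.34 (SD, n = 3; limma, adjusted p = 0.00035 and 0.00082). wdr-5.1, a COMPASS partner of DPY-30, had -3.32 ± 0.46 (SD, n = 3; limma, adjusted p = 0.0019), but did not pass in edgeR (adjusted p = 0.17, log2 change -5.47). Only set-1, set-2, set-4 and hda-1 of this list passed in edgeR, all as depleted (adjusted p = 0.038, 0.02, 0.047 and 0.021).

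The X signal and sex determination genes included 6 depleted and 2 enriched among 13, with a median of -2.09, against 27.2% depleted and 30.2% enriched among all genes. The X signal elements fox-1 (-5.95 ± 1.19) and sex-1 (-6.10 ± 1.46), which repress the switch gene xol-1, were depleted (SD, n = 3; limma, adjusted p = 3e-05 and 4.1e-05). ceh-39, another X signal element, had -4.35 ± 1.66 (SD, n = 3; limma, adjusted p = 0.0007; edgeR, adjusted p = 0.061). xol-1 itself had -0.29 ± 0.74 (SD, n = 3; limma, adjusted p = 0.78). Only fox-1, sex-1 and her-1 of this list passed in edgeR, all as depleted (adjusted p = 0.0085, 0.0085 and 0.047). The enriched genes were tra-1, the terminal regulator of somatic sex (1.94 ± 0.83, adjusted p = 0.011), and the calpain protease gene tra-3 (2.01 ± 0.41, SD, n = 3; limma, adjusted p = 0.026). Neither was secure: tra-1 missed the threshold without replicate 2 (limma, adjusted p = 0.079), and tra-3 did so with any 1 replicate left out (0.062 to 0.11).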

How the data were processed

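The deposited tables hold, per the file headers, log2 ratios for 3 replicate numbers, the authors' average log2 value, a count of raw reads summed over libraries, and the authors' adjusted p-value. The submitters' processing notes name ce11 and DESeq2, without a role or version. The aligner, the handling of multi-mapping reads and the making of the ratios were not given in the sources used here. From the values, each ratio is log2 of (reads + 1) over (reads + 1) minus a constant (0.5904, 0.3356 and 0.1619 in the GATC table). Reads per library were recovered from ratio and sum to within 4e-12 on the log2 scale. The solution was unique for 90.2% of GATC sites, other sites got the mean over solutions, and 0 entries had none. Removal of PCR duplicates is not stated, and if they remain among the reads, counting error is understated.

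Gene coordinates came from a RefSeq table of WBcel235 without strand, so the sides of a gene were compared by coordinate rather than from 5′ to 3′ as planned. That table lists pqn-85 as scc-2. The main test was limma 3.58.1 (R 4.3.3) with an intercept only on the 3 ratios, a variance trend on log2 reads, robust estimation, at least 60 reads and Benjamini-Hochberg adjustment at 0.05, two-sided. edgeR 4.0.16 was run on recovered reads. Scripts were tested on simulated data. A site was listed for 19293 protein-coding genes, of which 18648 were tested. Surroundings needed at least 10 sites and each side of a gene at least 2. Per-sample columns left unused numbered 0.

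The members and lists were chosen with earlier results of these data known. Genes named are all members, their nearest neighbours, and up to 3 called genes per direction of each list by adjusted p. Outside that rule, xol-1, set-2, hda-1, her-1 and single sites were named after their values were seen. Alternatives were other read minimums, pseudocounts of 0.1 and 5, total-read scaling, gene bodies alone, medians over sites, wider surroundings, edgeR, fits with and without the replicate block, an adjusted p of 0.01 and each replicate left out. Removal of the site with most reads and sides by coordinate were chosen after seeing the data.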

Additional observations from a re-analysis of the deposited data

How the results depend on the processing

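No result changed its direction past the threshold under any alternative. Of the gene ratios, 7 members were depleted in each limma fit except with the median over sites (6), at an adjusted p of 0.01 (6, without dpy-26), with a pseudocount of 0.1 (8) and with no replicate block (8). Of all 18648 genes tested, 3791 were depleted with the median over sites, 5211 with that pseudocount and 5192 with no replicate block. The share of all genes at 0.01 was not counted. edgeR's quasi-likelihood test called 4 with TMM and the replicate block, 4 with no replicate block and 4 with total-read scaling. Of all 18648 genes, these edgeR fits called 2880, 3369 and 2338 depleted, in that order. Same-numbered libraries of the 2 groups did not deviate together (correlations of -0.08, -0.08 and -0.06), so the numbers pair libraries only because the deposited ratios do. GATC sites gave 33 depleted and 1 enriched. Depleted sites numbered 0 to 0 with 1 replicate left out and 0 at an adjusted p of 0.01. Enriched sites numbered 0 to 0 with 1 replicate left out, 0 at 0.01, 2 with a pseudocount of 5 and 3 with no replicate block. Of all 124915 sites tested, 14266 were enriched with a pseudocount of 5 and 23241 with no replicate block. For 2-kb entries (56 depleted, 6 enriched), leaving out 1 replicate gave 31 to 32 and 1 to 2, an adjusted p of 0.01 gave 14 and 1, and a pseudocount of 0.1 gave 3 enriched. With that pseudocount 5077 of all 41117 entries tested were enriched. Against surroundings (4 lower, 1 higher), an adjusted p of 0.01 gave 2 and 0, 2-kb entries gave 0 higher, and leaving out 1 replicate gave 0 to 1 higher. Over all genes, 2-kb entries gave 2397 of 19532 higher, and leaving out 1 replicate gave 1491 to 1601 of 18642. The low- against the high-coordinate side (0 in each direction) gave 1 lower and 1 higher with at least 3 sites, and 0 to 1 higher when 1 replicate was left out. Of the 35 related genes 23 were depleted and 2 enriched. Depleted ones numbered 17 to 23 with 1 replicate left out and 17 with the median over sites. In edgeR they numbered 16 with the block, 14 with no replicate block and 11 with total-read scaling. Of all 18648 genes, 4092 to 4395 were depleted with 1 replicate left out and 3791 with the median over sites. Counts over all genes in edgeR were those given above. Enriched related genes numbered 0 to 1 with 1 replicate left out, 1 with the median over sites, 0 at an adjusted p of 0.01, and in edgeR 0 with the block, 0 with no replicate block and 1 with total-read scaling. Of all genes, 4392 to 4765 were enriched with 1 replicate left out and 4346 with the median over sites. In the edgeR fits 2465, 3542 and 3602 of all genes were enriched. Total-read scaling turned the limma calls over all 2-kb entries from 7879 enriched and 7056 depleted to 10359 and 6183, and those over all genes from 5639 and 5064 to 6226 and 4581. The cause of these changes was not tested. Fits without a replicate have fewer ratios. Too few reads kept 52 of the 162 member sites out of the test.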

Other observations

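The authors' deposited table of 10-kb intervals gives values for the intervals that hold the dosage compensation genes. In the authors' deposited table the lowest average log2 values were -5.86 for the interval with most of sdc-2 (X, 11520001 to 11530000; authors' adjusted p = 3.6e-09), -5.71 for the low-coordinate part of mix-1 (II, 10820001 to 10830000; 1.3e-13) and -5.31 for dpy-30 (V, 12190001 to 12200000; 5.3e-10). The authors' deposited table gives -4.73 for the interval of dpy-27 (adjusted p = 0.00023), -4.38 for capg-1 (1.2e-07) and -4.43 for the low-coordinate part of sdc-1 (1.2e-07). These intervals also take in DNA outside the genes. That of dpy-27 held 13365 reads, of which 9681 lay at III 3810001 to 3812000, outside the gene. That of dpy-30 held 25285 reads, and the gene's own window 18825. The other interval of sdc-2 has -0.10 (adjusted p = 0.97) and that of sdc-1 0.72 (0.94), and the other 2 of mix-1 have -2.0 (0.18) and -2.71 (9.3e-05) in the authors' deposited table. For dpy-26 the authors' deposited table gives -2.72 (adjusted p = 0.0053) and -0.64 (0.66) in the 2 intervals the gene touches. For dpy-28 its averages are 0.03 and -0.50 (adjusted p = 0.78 and 0.87), and for sdc-3 0.64 and -1.17 (0.50 and 0.29). For dpy-21 the authors' deposited table gives 1.15 (adjusted p = 0.28) in one interval and 0.22 with no adjusted p in the other, where the replicate ratios are -0.88, -8.68 and 2.39.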
